A study of Mus musculus with 2 samples.

Results

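Mir191 and Mir425 are the genes of a pair of neighbouring miRNAs, miR-191 and miR-425. Their members here were the sequence tags of 18 to 30 nt that equalled a stretch of the annotated Mir191 or Mir425 hairpin, either directly or after removal of 1 to 3 nt at the 3' end. This matching used no measured level, although the members were chosen with earlier results of these data known. Of 1628745 distinct tags of that length in both libraries together, 177 belonged to the pair, of which 133 came from Mir191 and 44 from Mir425. They held 106347 reads in the Ia_low library and 315023 reads in the Ia_high library, and none matched another miRNA hairpin.

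The libraries were made from CD11c+ cells of C57BL/6J mouse spleen, enriched on CD11c microbeads and sorted by surface Ia, the MHC class II molecule, into CD11c+Ia low cells (Ia_low) and CD11c+Ia high cells (Ia_high). The labels call both populations dendritic cells and give no treatment, age or number of mice. Each population gave 1 library of gel-selected small RNA. Differences between the libraries therefore stand without replicates and without p-values. The Ia_low library held 13739811 reads, of which 2690905 matched a miRNA hairpin exactly, and the Ia_high library held 16388303 reads, of which 5846363 did. Levels are in CPM, reads per 1000000 such miRNA reads. A count of 0 was taken to allow up to 3 reads, or 1.11 CPM in Ia_low and 0.513 CPM in Ia_high. Most tags were read several times, most often, tags read once apart, 9 times in Ia_low and 4 times in Ia_high, so each exact 95% interval on a level, share or ratio of miRNA reads was computed after division of the counts by those numbers. The limit for a count of 0 was not divided in this way, so it is lower than such an interval would give. The intervals cover counting error only, because the libraries were amplified by PCR without molecular identifiers.

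A miRNA is cut from a hairpin transcript by Drosha and Dicer, which leaves a 5p and a 3p arm, and usually the cell keeps mostly the 5p or mostly the 3p strand in an Argonaute protein. Bases 2 to 8 of the retained strand, the seed, pair with sites in mRNA 3' UTRs and lower the output of those mRNAs. miR-191 is present in many tissues and is often used as a reference RNA for normalising miRNA assays. In mouse blood cells it has been studied in lymphocyte survival and in red cell maturation, and miR-425 has been studied mainly in human cancer cells.

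Both hairpins lie on the plus strand of mouse chromosome 9 (GRCm38), Mir191 at chr9:108568319-108568392 and Mir425 at chr9:108568777-108568861, with 384 bases between them. In the GENCODE M21 annotation both lie within an exon of the lincRNA gene 4833445I07Rik (chr9:108567533-108569174), and the protein-coding gene Dalrd3 starts 1024 bases beyond Mir425. On the opposite strand the same annotation places a further miRNA gene, Gm24083, across the whole of Mir191. The hairpins are shown because every tag below is a stretch of them. Capitals mark the mature miRNAs of RefSeq, and the GENCODE and RefSeq hairpins have the same letters.
Mir191: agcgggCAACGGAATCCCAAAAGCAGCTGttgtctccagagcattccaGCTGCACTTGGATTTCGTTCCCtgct
Mir425: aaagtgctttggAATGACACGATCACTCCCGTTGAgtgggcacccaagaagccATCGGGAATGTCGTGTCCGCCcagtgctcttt

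The 4 RefSeq mature miRNAs (GRCm38 table) are shown with the seed in capitals, since the start of a read decides which seed it carries.
mmu-miR-191-5p: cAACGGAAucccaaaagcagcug
mmu-miR-191-3p: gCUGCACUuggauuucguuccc
mmu-miR-425-5p: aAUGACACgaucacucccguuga
mmu-miR-425-3p: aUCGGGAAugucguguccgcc
The pair are neighbours and not a seed family, as all 4 seeds differ. Among 1738 mature mouse miRNAs in that table, the seed of miR-425-5p was shared by 1 other, mmu-miR-489-3p, and the other 3 seeds were shared by none.

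miR-191-5p was among the most abundant miRNAs of both populations, while miR-425-5p was far less abundant and both 3p arms were scarce. miR-191-5p had 102086 exactly matching reads in Ia_low, or 37937 CPM, and 303573 in Ia_high, or 51925 CPM. Among the miRNA arms ordered by level, it stood at rank 7 of 381 detected in Ia_low and at rank 5 of 598 in Ia_high. Its ratio of Ia_low over Ia_high was 0.731 (interval 0.716 to 0.745). This is a log2 ratio of -0.45, so the level was lower in Ia_low by less than 2-fold.

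miR-425-5p had 1335 exactly matching reads in Ia_low, or 496 CPM, and 3724 in Ia_high, or 637 CPM. It stood at rank 64 in Ia_low and at rank 70 in Ia_high. Its ratio of Ia_low over Ia_high was 0.779 (interval 0.650 to 0.927), a log2 ratio of -0.36. The intervals of the 2 ratios overlapped, so the 5p arms of both hairpins were lower in Ia_low by a size that counting error does not separate.

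From exact matches, the 3p arms had too few reads for a direction. miR-191-3p had 31 exactly matching reads in Ia_low, or 11.5 CPM, and 56 in Ia_high, or 9.58 CPM, a ratio of 1.20 (interval 0.254 to 4.06). miR-425-3p had 60 exactly matching reads in Ia_low, or 22.3 CPM, and 101 in Ia_high, or 17.3 CPM, a ratio of 1.29 (interval 0.460 to 3.11). Both intervals included 1. With tailed reads counted, the values of both lay on the other side of 1: the ratio of miR-191-3p was 0.504 (interval 0.113 to 1.52) and that of miR-425-3p was 0.503 (interval 0.263 to 0.885).

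**Figure D1:**
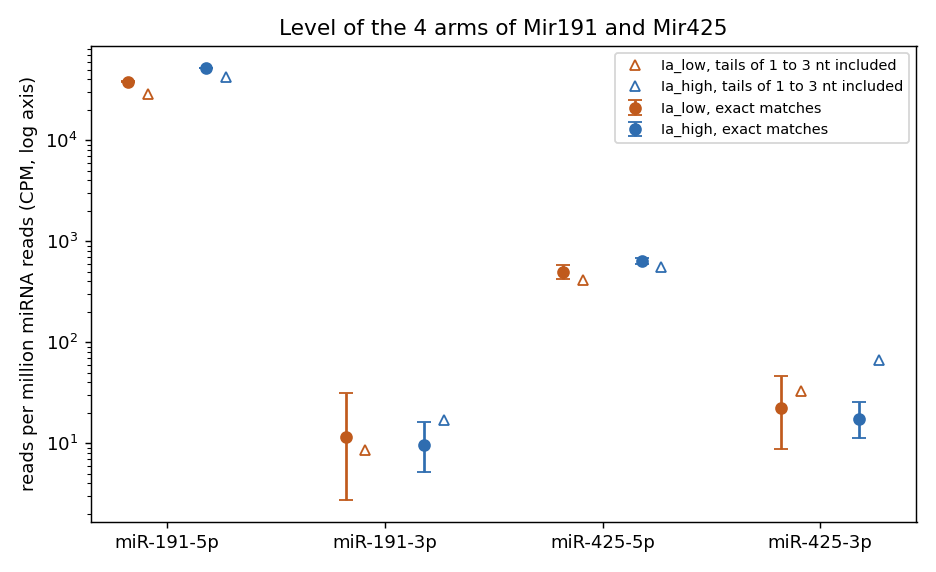
Level of the 4 arms in CPM (log axis), with Ia_low in orange and Ia_high in blue, 1 library each. Filled points are exact matches with widened 95% counting intervals and open triangles include reads with a tail of 1 to 3 nt; the 5p arms lie far above the 3p arms, and the order of the libraries at the 3p arms changes when tails are included.

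An arm was called higher or lower in Ia_low at a ratio of at least 2-fold, provided that it averaged at least 10 CPM and that the counting interval from undivided reads excluded 1. None of the 4 arms was called, against 41.6% of the 238 arms measured, of which 8.82% were called higher and 32.8% lower. With tails counted, again none of the 4 was called, against 41.5% of 258 arms, of which 10.1% were called higher and 31.4% lower. The median log2 ratio of all 238 arms was -0.39, so the values of -0.45 and -0.36 for the 5p arms lay close to the middle. A lower ratio was found in 113 of the 238 arms for miR-191-5p and in 125 for miR-425-5p. Scaling to all reads in place of miRNA reads moved the median by -0.87 (log2) and both 5p arms with it, to -1.32 and -1.23, where 64.3% of the 238 arms were called and 61.3% were called lower, and both 5p arms were among them. With the ratios centred on the median arm, miR-191-5p had -0.06 and miR-425-5p 0.03.

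**Figure D2:**
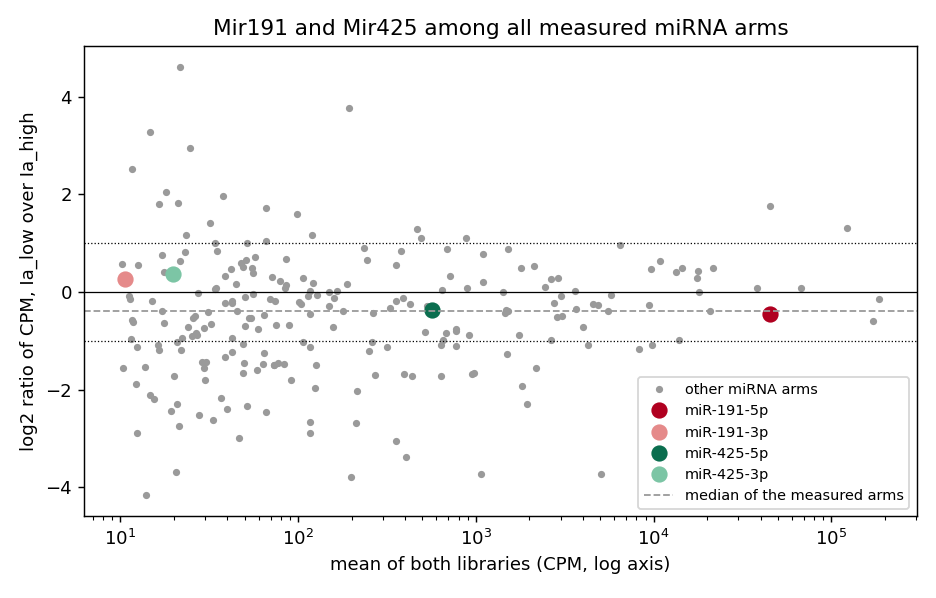
Log2 ratio of CPM, Ia_low over Ia_high, against the mean level (log axis) for the measured miRNA arms, with the 4 arms of the pair in colour; arms with 0 reads in 1 library are not drawn. The dashed line is the median of -0.39 and the dotted lines mark 2-fold; miR-191-5p at -0.45 and miR-425-5p at -0.36 lie next to the median.

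Among the 53 arms with a mean of 1000 CPM or more, those with the log2 ratio nearest to that of miR-191-5p were Mir532-5p at -0.43, Mir93-5p at -0.49, Mir142-3p at -0.50, and Mir186-5p and Mir181b-1-5p, both at -0.39. Those nearest to miR-425-5p were Mir92-2-3p at -0.38, Mir98-5p at -0.34, Mir25-3p at -0.39 and again Mir181b-1-5p and Mir186-5p. This likeness rests on 1 ratio between 2 libraries, and 85 of the 238 measured arms lay within 0.5 of the median.

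Read length differed between the libraries and touched the pair unequally, because miR-191-5p is mostly 23 nt long and miR-425-5p mostly 22 nt. Of the miRNA reads, 23 nt made up 26.2% in Ia_low and 23.6% in Ia_high, 24 nt made up 10.3% in Ia_low and 5.31% in Ia_high, and 20 nt made up 1.54% in Ia_low and 5.49% in Ia_high. Compared within reads of 23 nt, miR-191-5p had a log2 ratio of -0.59 and miR-425-5p of -0.69. Compared within reads of 22 nt, miR-425-5p had -0.46 and miR-191-5p, with 2804 reads in Ia_low and 12070 in Ia_high, had -1.04, which passed 2-fold. Within that length 54 of 203 measured arms were called lower in Ia_low and 32 higher. Both 5p arms thus had a lower value in Ia_low within either length. With the Ia_high reads weighted by length, the log2 ratio was -0.80 for miR-191-5p and -0.40 for miR-425-5p. The part of read length in the ratios was not tested further.

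Because the hairpins are neighbours, the reads of miR-191-5p over those of miR-425-5p give a ratio that needs no scaling between libraries. It was 76.5 (interval 65.0 to 90.5) in Ia_low and 81.5 (interval 76.4 to 87.1) in Ia_high. The Ia_low ratio divided by the Ia_high ratio was 0.938 (interval 0.790 to 1.12), a log2 difference of -0.09, which was within counting error. When the Ia_high reads were weighted for the difference in read length, the log2 difference was -0.39, and within reads of 22 nt it was -0.59.

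The pair was set beside the 16 pairs of neighbouring hairpins, this pair included, that lay on the same strand at most 1000 bases apart with 100 reads or more of the more abundant arm in each library. The distance and the read minimum for this comparison were chosen after seeing the data. The median unevenness, the size of the log2 ratio of reads between neighbours, was 2.62 in Ia_low and 2.63 in Ia_high, against 6.26 in Ia_low and 6.35 in Ia_high for Mir191 over Mir425. In each library 1 pair was more uneven, Mir27b over Mir24-1, at 6.48 in Ia_low and 7.38 in Ia_high. Arms with the same most abundant tag in several hairpins were merged under the name of 1 of them. Some pairs can therefore hold reads of hairpins elsewhere, or a lesser arm, which limits these medians and ranks as a comparison of neighbours. The size of the difference between libraries had a median of 0.65 over the pairs and reached 2.21, and 1 pair had a smaller difference than the 0.09 of Mir191 and Mir425.

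The balance of the arms differed strongly between the hairpins. From exact matches, Mir191 gave 3293 5p reads per 3p read in Ia_low (interval 1203 to 13855) and 5421 in Ia_high (interval 3231 to 9916). Mir425 gave 22.3 5p reads per 3p read in Ia_low (interval 10.4 to 57.9) and 36.9 in Ia_high (interval 24.9 to 57.1). For either hairpin the intervals of the 2 libraries overlapped. With tails counted, Mir425 gave 12.3 in Ia_low (interval 7.05 to 23.3) and 8.48 in Ia_high (interval 7.02 to 10.3). Mir191 then gave 3378 in Ia_low (interval 1234 to 14211) and 2482 in Ia_high (interval 1751 to 3647). The direction of the difference between libraries thus depended on the tailed reads for both hairpins.

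Of the 99 hairpins that reached 100 reads in both libraries, 15 in Ia_low and 8 in Ia_high were more uneven between arms than Mir191. Mir425 lay nearer the middle, with 59 in Ia_low and 55 in Ia_high more uneven. The difference between libraries in log2 balance was -0.72 for Mir191 and -0.73 for Mir425, and 63 and 62 of the 99 hairpins had a larger one.

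The start of miR-191-5p was nearly fixed. Position 7 of the hairpin, the RefSeq start, held 98.3% of its exactly matching reads in Ia_low (interval 98.1 to 98.6) and 97.6% in Ia_high (interval 97.5 to 97.7). Position 8 held 1.63% of reads in Ia_low (interval 1.40 to 1.88) and 2.40% in Ia_high (interval 2.29 to 2.51), and these reads carry a seed moved by 1 base. The later start was thus less frequent in Ia_low by more than counting error, at a share of a few percent in both libraries. Over 76 miRNA arms with 1000 reads or more in each library, the share at the most common start had a median of 99.4% in Ia_low and 99.3% in Ia_high, so miR-191-5p was slightly less uniform than the median arm.

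The start of miR-425-5p was position 13 in 99.1% of exactly matching reads in Ia_low (interval 95.9 to 99.95) and in 99.7% in Ia_high (interval 99.1 to 99.9), which is the RefSeq start.

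The most common 3' end was the same in both libraries, and for miR-425-5p it differed from the RefSeq entry. The most abundant tags of miR-191-5p, the only 2 that reached 5% of its reads, were the 23 nt form and a form that is 1 base longer.
miR-191-5p, 23 nt: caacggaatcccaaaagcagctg
miR-191-5p, 24 nt: caacggaatcccaaaagcagctgt
The 23 nt tag, which is the RefSeq miRNA, had 86197 reads in Ia_low and 254712 in Ia_high. It made up 82.3% of all reads of the arm in Ia_low and 82.1% in Ia_high, tailed reads included. The 24 nt tag had 12053 reads in Ia_low, or 11.5% of the arm, and 31024 in Ia_high, or 9.999%. Its last base equals the next base of the hairpin, so a T added after cutting cannot be told apart from a longer cut.

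Of the less common 3' ends of miR-191-5p, those at positions 26, 28 and 30 differed between the libraries by more than counting error. At position 27 the intervals overlapped, with 0.437% in Ia_low (interval 0.324 to 0.576) and 0.562% in Ia_high (interval 0.510 to 0.617). They also overlapped at position 31. Among exact matches, the end at position 26 held 0.157% in Ia_low (interval 0.0926 to 0.248) and 0.831% in Ia_high (interval 0.768 to 0.899). The end at position 28 held 1.47% in Ia_low (interval 1.26 to 1.71) and 2.04% in Ia_high (interval 1.94 to 2.15), and the end at position 30 held 12.2% in Ia_low (interval 11.6 to 12.8) and 10.6% in Ia_high (interval 10.4 to 10.8). The end at position 30 thus had the larger share in Ia_low and those at positions 26 and 28 the smaller. This is also the direction of the read lengths over all miRNAs.

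The most common length, 23 nt, held 84.8% of exactly matching miR-191-5p reads in Ia_low and 84.3% in Ia_high, against medians of 67.1% in Ia_low and 66.5% in Ia_high over the 76 arms. A higher share at its own most common length was found in 15 of the 76 arms in Ia_low and in 13 in Ia_high.

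For miR-425-5p 5 tags reached 5% in either library, all with the same start. Capitals mark a base that the hairpin does not encode.
miR-425-5p, 22 nt: aatgacacgatcactcccgttg
miR-425-5p, 23 nt: aatgacacgatcactcccgttga
miR-425-5p, 24 nt: aatgacacgatcactcccgttgag
miR-425-5p, 25 nt: aatgacacgatcactcccgttgagt
miR-425-5p, 22 nt with a T tail: aatgacacgatcactcccgttgT
The 22 nt tag, which is 1 base shorter than the RefSeq miRNA, had 1024 reads in Ia_low and 2937 in Ia_high, or 68.9% of the arm in Ia_low and 70.9% in Ia_high. The RefSeq form of 23 nt had 72 reads in Ia_low and 265 in Ia_high, or 4.84% in Ia_low and 6.39% in Ia_high. The 24 nt tag had 106 reads in Ia_low and 183 in Ia_high, and the 25 nt tag had 108 in Ia_low and 280 in Ia_high. The dominant product of Mir425 in both libraries was therefore the form that ends 1 base before the annotated end.

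**Figure D3:**
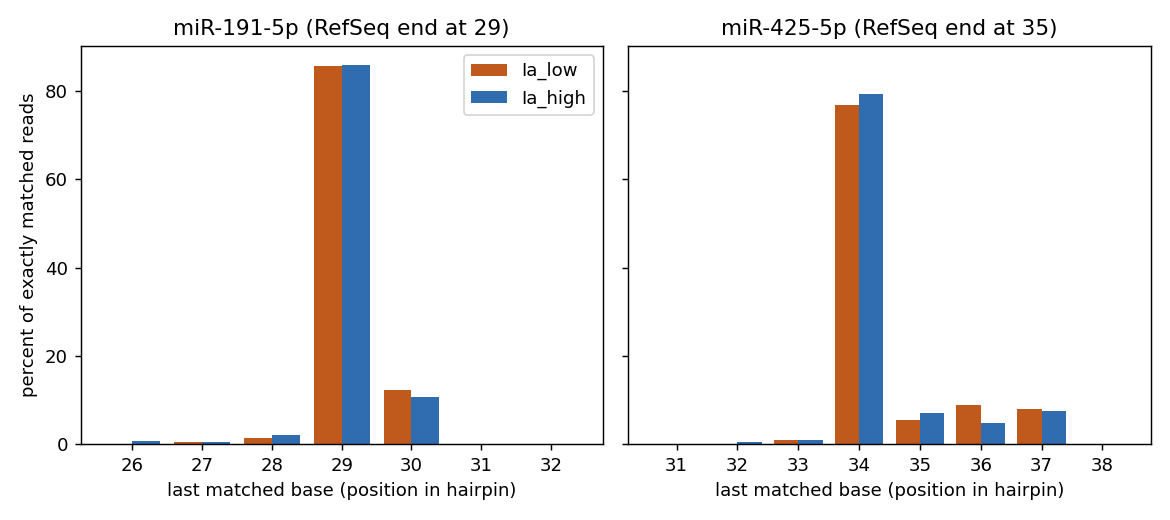
Share of exactly matching reads (percent) by the last matched base of the hairpin, for miR-191-5p on the left and miR-425-5p on the right, with Ia_low in orange beside Ia_high in blue. Most miR-191-5p reads end at position 29, the RefSeq end, and most miR-425-5p reads end at position 34, 1 base before the RefSeq end, in both libraries.

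Untemplated tails, bases at the 3' end that the hairpin does not encode, are added to miRNAs by nucleotidyl transferases that attach mostly U or A. They were rare on miR-191-5p, moderate on miR-425-5p and frequent on miR-425-3p. miR-191-5p carried a tail of 1 to 3 nt on 2.50% of its reads in Ia_low (interval 2.23 to 2.80) and on 2.16% in Ia_high (interval 2.06 to 2.26). Of the 76 arms with 1000 reads or more, whose median was 17.6% in Ia_low and 15.3% in Ia_high, 71 in Ia_low and 70 in Ia_high had a larger share of tailed reads. Tails made only of A were the most frequent counted on miR-191-5p, on 1.20% of reads in Ia_low and 1.29% in Ia_high. The hairpin continues with T after the main end, so a T added there counts as an exact match. The 24 nt form, at 11.5% of the arm in Ia_low and 9.999% in Ia_high, can hold such reads. The low share of tails and the order of A over T therefore follow in part from the matching rule.

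By this matching, a tail was counted more often on reads of miR-191-5p that matched 1 base less than the main end. Among its reads that matched up to position 28, 1 base short of the main end, 39.1% in Ia_low (963 of 2464, interval 33.3 to 45.1) and 20.7% in Ia_high (1619 of 7825, interval 18.9 to 22.6) carried a tail. Among those that matched up to position 29, the main end, 0.852% in Ia_low (752 reads) and 0.978% in Ia_high (2576 reads) did. A 23 nt tag that differs from the main tag only in its last base is counted at position 28. With a G there it is counted at position 29, so part of the contrast follows from the matching rule. Such tags ending in C, T and A had 380, 288 and 154 reads in Ia_low. In Ia_high they had 575, 448 and 330 reads. The part of read errors in these tags was not tested.

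miR-425-5p carried a tail on 10.2% of reads in both libraries, with an interval of 6.06 to 15.9 in Ia_low and of 8.38 to 12.2 in Ia_high. Tails made only of T, which is U in the RNA, were on 8.34% of reads in Ia_low and 7.04% in Ia_high. The T-tailed 22 nt tag shown above had 111 reads in Ia_low and 251 in Ia_high. The next base of the hairpin after the 22 nt form is A, so an A added there counts as templated.

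On miR-425-3p 61 of 121 reads in Ia_low, or 50.4% (interval 22.9 to 77.8), and 388 of 489 reads in Ia_high, or 79.3% (interval 71.1 to 86.1), carried a tail. Nearly all of it was a T of 1 base, which 60 reads had in Ia_low and 360 in Ia_high. The 2 intervals overlapped. Among 34 arms that were the lesser of their hairpin and had 100 reads or more in each library, the median share was 31.3% in Ia_low and 19.4% in Ia_high; 8 had a larger share than miR-425-3p in Ia_low and 0 in Ia_high.

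The tags of miR-425-3p are shown because most of them differ from the RefSeq entry, which runs from position 54 to position 74 of the hairpin, in start, end or tail. Among exact matches, position 74 was the most common end, with 52 of 60 reads in Ia_low and 54 of 101 in Ia_high.
miR-425-3p, from position 52, with a T tail: ccatcgggaatgtcgtgtccgT
miR-425-3p, from position 52: ccatcgggaatgtcgtgtccg
miR-425-3p, from position 53: catcgggaatgtcgtgtccgcc
miR-425-3p, from position 53, with a T tail: catcgggaatgtcgtgtccgccT
miR-425-3p, from position 53, shorter, with a T tail: catcgggaatgtcgtgtccgT
miR-425-3p, from position 54, with a T tail: atcgggaatgtcgtgtccgcccT
The tag from position 52 with a T tail had 20 reads in Ia_low and 210 in Ia_high, or 16.5% of the arm in Ia_low and 42.9% in Ia_high. The untailed tag from position 53 had 52 reads in Ia_low and 50 in Ia_high, or 43.0% in Ia_low and 10.2% in Ia_high. In the T-tailed tags that end after position 72 the T stands where the hairpin has C.

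Tails included, reads from position 52 made up 23.1% of miR-425-3p in Ia_low (interval 5.26 to 53.3) and 45.6% in Ia_high (interval 36.6 to 54.9), and reads from position 53 made up 68.6% in Ia_low (interval 38.5 to 90.3) and 44.8% in Ia_high (interval 35.8 to 54.0). Reads from the RefSeq start, position 54, made up 8.26% in Ia_low and 5.73% in Ia_high. Most reads of this arm thus began before the annotated start, with a seed moved by 1 or 2 bases, and the shares of the libraries overlapped within counting error.

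miR-191-3p was at the limit of detection, with 2 tags in Ia_low and 14 in Ia_high. Shown are both tags of Ia_low, the first of which is the RefSeq miRNA, and the most abundant tag of Ia_high.
miR-191-3p, 22 nt: gctgcacttggatttcgttccc
miR-191-3p, 23 nt: gctgcacttggatttcgttccct
miR-191-3p, shorter, with a T tail: gctgcacttggatttcgttcT
The 22 nt tag had 23 reads in Ia_low and 10 in Ia_high, the 23 nt tag had 8 in Ia_low and 0 in Ia_high, and the T-tailed tag had 0 in Ia_low and 27 in Ia_high. A tail was on 0 of 31 reads in Ia_low, where the interval reached 65.7%, and on 69 of 125 reads in Ia_high, or 55.2% (interval 36.4 to 72.9). These intervals overlapped, so a difference in tails was not detectable at this depth.

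**Figure D4:**
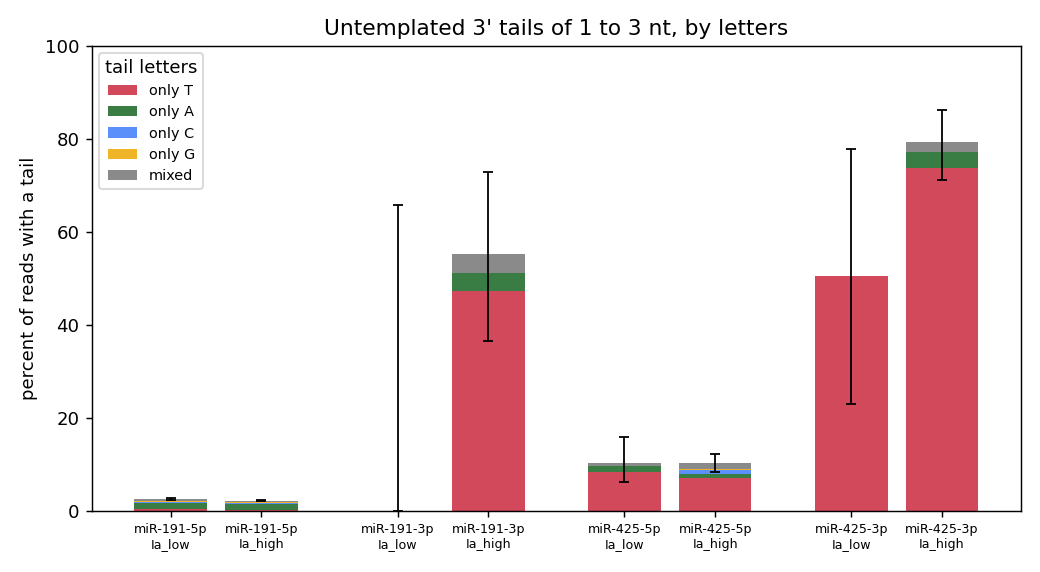
Percent of the reads of each arm with an untemplated 3' tail of 1 to 3 nt, stacked by tail letters, Ia_low left of Ia_high for each arm; black bars are the widened 95% counting intervals of the whole share. Tails are few on the 5p arms, while T tails reach 50.4% in Ia_low and 73.8% in Ia_high on miR-425-3p, where the Ia_low interval is wide.

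The gate and the makeup of the populations were read from mRNA fragments in the same libraries, counted as distinct tags of 20 to 30 nt that matched exactly 1 protein-coding gene. Of the 7118 genes with 10 fragments or more, 9.61% were called lower in Ia_low and 6.25% higher. Of 8 dendritic cell marker genes, 6 were called lower in Ia_low and 0 higher, and their summed level was 737 per 100000 fragments in Ia_low and 1392 in Ia_high. The list includes H2-Aa, H2-Ab1, H2-Eb1, Cd74 and Ciita, which belong to the MHC class II system on which the cells were sorted. All of these except Cd74 were called lower, and they held most of the summed fragments. The count and the sum therefore largely restate the gate. Of 6 monocyte marker genes, 5 were measured and all 5 were called higher in Ia_low, with a summed level of 785 per 100000 fragments in Ia_low and 180 in Ia_high. The defining markers Flt3 and Zbtb46 of dendritic cells had 6 and 1 fragments in Ia_low, against 163 and 56 in Ia_high, so the labelled cell type had few of its defining transcripts in Ia_low. Of the cDC1 markers 3 of 4 measured were called lower, with Xcr1, Cadm1 and Batf3 at 0 fragments in Ia_low. Their summed level was 36.2 per 100000 fragments in Ia_low and 130 in Ia_high. Of the cDC2 markers 3 of 4 were called lower, with Esam at 0 in Ia_low. The other, Sirpa, went the other way without a call, with 141 fragments in Ia_low and 226 in Ia_high. Its ratio was 1.51 (interval 1.22 to 1.88). With Sirpa included, the summed cDC2 level was 116 per 100000 fragments in Ia_low and 128 in Ia_high. Of the 4 macrophage markers 2 were called lower, and the summed level of all 4 was 58.1 per 100000 fragments in Ia_low and 85.9 in Ia_high. Those not called were Adgre1, at a ratio of 1.65 (interval 1.20 to 2.26), and Spic, at 0.866 (interval 0.244 to 2.55). T cell markers summed to 0 fragments in Ia_low and to 35 in Ia_high, or 10.2 per 100000 fragments. Of those in Ia_high, 32 were of Tcf7 alone, which was called lower, while Cd3e and Cd3g had 0 in both libraries. B cell markers summed to 5 unscaled fragments in Ia_low and 19 in Ia_high. Per 100000 fragments this was 3.54 in Ia_low and 5.55 in Ia_high. Also unscaled, erythroid markers summed to 0 fragments in Ia_low and 1 in Ia_high, and platelet markers to 0 in Ia_low and 2 in Ia_high. Per 100000 fragments, NK cell markers summed to 4.96 in Ia_low and 4.09 in Ia_high, and neutrophil markers to 36.9 in Ia_low and 9.35 in Ia_high, with 1 of 2 measured, Csf3r, called higher at a ratio of 4.64. Csf3r alone had 44 of the 52 neutrophil marker fragments in Ia_low and 23 of 32 in Ia_high. The other neutrophil markers were few: Mmp8 had 5 in each library, S100a8 had 2 in Ia_low and 1 in Ia_high, and S100a9 had 1 in Ia_low and 3 in Ia_high. In such bulk libraries fewer cells of a type and less RNA per cell cannot be told apart, and the part of the cell makeup in the levels of miR-191 and miR-425 was not tested.

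The listed targets came from earlier work on other cells, as background: Egr1, an immediate early transcription factor, Foxp1, a forkhead repressor, and Tcf3, the E protein transcription factor, for miR-191 in lymphocytes; Riok3, an atypical kinase, and Mxi1, an antagonist of Myc, for miR-191 in mouse red cell precursors; and Ripk1, a kinase of cell death and NF-kB signalling, for miR-425. Of these 6 genes 1 was called lower in Ia_low and 0 higher, against 9.61% called lower and 6.25% called higher among 7118 genes with 10 fragments or more.

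Egr1 had 39 fragments in Ia_low and 479 in Ia_high, a scaled ratio of 0.198 (exact 95% counting interval 0.139 to 0.274). It was the listed target that was called lower. Foxp1 had 46 in Ia_low and 98 in Ia_high, a ratio of 1.14 (interval 0.784 to 1.63), and Riok3 had 26 in Ia_low and 63 in Ia_high, a ratio of 1.001 (interval 0.608 to 1.60).

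The remaining 3 targets had fewer fragments and ratios above 1 with intervals that included it. Ripk1 had 20 fragments in Ia_low and 28 in Ia_high, a ratio of 1.73 (interval 0.925 to 3.19). Mxi1 had 14 in Ia_low and 18 in Ia_high, a ratio of 1.89 (interval 0.869 to 4.02). Tcf3 had 9 in each library, a ratio of 2.43 (interval 0.853 to 6.90).

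A complement of the seed was searched in the longest annotated 3' UTR of each gene, on the sense strand only. The 7 letters TTCCGTT for miR-191-5p were found in 638 of 21028 genes, or 3.03%, and the 7 letters GTGTCAT for miR-425-5p in 1930, or 9.18%. Of the listed targets of miR-191, Egr1, Foxp1, Riok3 and Mxi1 had 1 match each and Tcf3 had 0, and Ripk1, listed for miR-425, had 2 matches to the miR-425-5p letters. A match describes the letters only and is no evidence of binding.

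Of 332 measured genes with the miR-191-5p letters 8.13% were called higher and 12.0% lower in Ia_low, and of 820 with the miR-425-5p letters 5.98% were called higher and 10.6% lower. Over all 7102 measured genes with an annotated 3' UTR the shares were 6.25% higher and 9.60% lower. The median log2 ratio of fragments was -0.14 in both lists and over all genes. The genes with a match had longer 3' UTRs, with medians of 2921 nt for miR-191-5p and 2895 nt for miR-425-5p against 1389 nt over all genes.

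Of the genes next to the hairpins 0 of 4 measured were called. Dalrd3, in whose human counterpart the miRNA pair lies within an intron, had 3 fragments in Ia_low and 9 in Ia_high, a ratio of 0.809 (interval 0.141 to 3.24). By reads in place of distinct fragments, with 17 in Ia_low and 46 in Ia_high, its ratio was 0.476 (interval 0.256 to 0.847), which was called lower. That interval took repeated reads of the same 3 and 9 fragments as independent counts, without division, so it is too narrow and the call rests on few fragments. Qrich1 had 26 in Ia_low and 70 in Ia_high, a ratio of 0.901 (interval 0.551 to 1.43). Impdh2, an enzyme of guanine nucleotide synthesis, had 7 in Ia_low and 31 in Ia_high, and Wdr6 had 1 in Ia_low and 14 in Ia_high. Ndufaf3 had 2 in Ia_low and 6 in Ia_high, and P4htm had 0 in both, which was below the minimum of 10. The counts were too small to set the host region beside the miRNAs.

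The lincRNA around the hairpins gave few reads. Outside the hairpins its sense strand had 62 reads of 7 tags in Ia_low and 19 reads of 7 tags in Ia_high, and the stretch between the hairpins had 0 reads in Ia_low and 4 in Ia_high. Neither loop had a read in either library. By undivided counts this allowed at most 3 reads, a limit that is too low where tags are read several times.

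**Figure D5:**
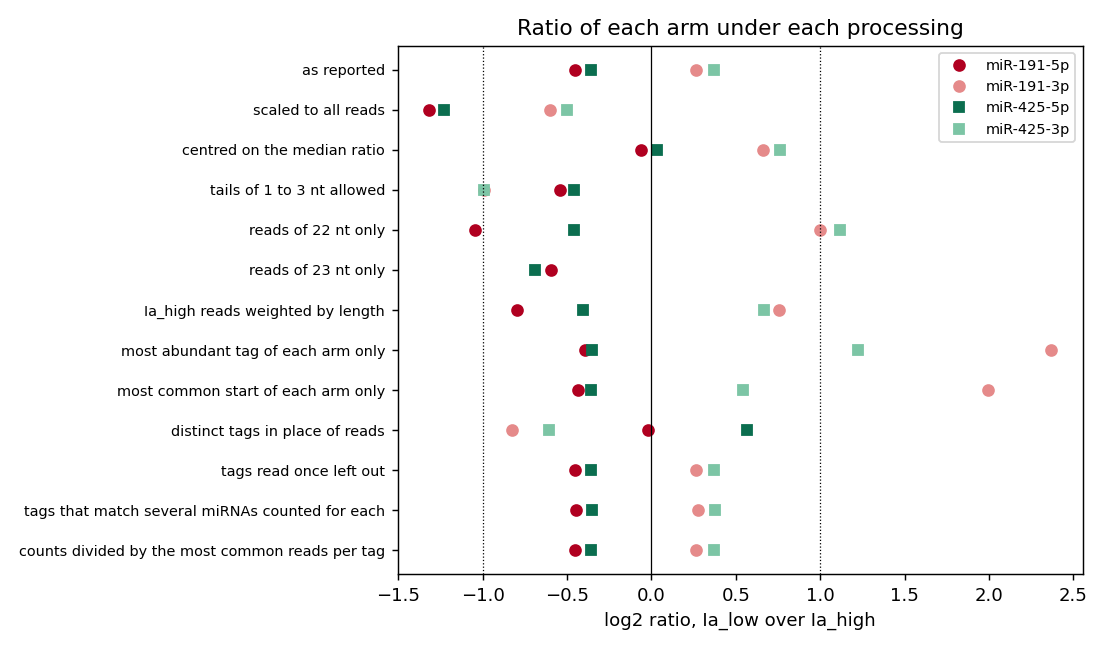
Log2 ratio, Ia_low over Ia_high, of the 4 arms (coloured symbols) under each way of counting or scaling (rows), with dotted lines at 2-fold. The 5p arms stay between -1.32 and 0.57, and the values of the 3p arms change sign with tails, scaling to all reads or distinct tags.

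The ratios of the 5p arms were recomputed under 12 other ways of counting. The log2 ratio of miR-191-5p was negative under all 12, between -1.32 and -0.02, and that of miR-425-5p was negative under 10 of 12, between -1.23 and 0.57. miR-191-5p passed 2-fold under 2 of them, scaling to all reads and reads of 22 nt alone, and miR-425-5p under 1, scaling to all reads.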

How the data were processed

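Small RNA from 1 Ia_low and 1 Ia_high sample was analysed, grouped by the sample titles. The deposited values are raw counts of reads per distinct sequence, unscaled, beside the length of each sequence. Per the labels' protocols, gel purification kept RNA below 30 bases, and adaptor-ligated RNA was amplified over 12 cycles. The authors' adaptor trimming, filters, aligner and build are not given in the sources used. A trimming error would change 3' ends and tails.

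Tags of 18 to 30 nt were matched exactly to 1178 miRNA hairpins of GENCODE M21 (GRCm38), split into arms at the middle; sides with the same top tag were merged and tags of several miRNAs left out. Tails were found by trimming the fewest of 1 to 3 nt. With 1 library per group there was no test: ratios of CPM carry exact Clopper-Pearson 95% counting intervals. mRNA fragments were scaled to 141044 in Ia_low and 342156 in Ia_high. The length weighting took, for each length, the median log2 ratio over miRNAs relative to 22 nt. The rule for named items was the 4 arms, tags at 5% or more of an arm, the neighbouring genes, the 6 targets reported and the 5 arms with the nearest ratio; for miR-191-3p only 3 of its 10 such tags are printed. A further target of the list is not reported here. The members and lists were chosen with earlier results of these data known. On simulated data, 94.29% of miRNA ratio intervals for Ia_low over Ia_high, over 245 measured miRNAs of 622, held the true ratio. The simulated counts had counting error only, without repeated reads of a tag, and the intervals were from undivided counts. The value therefore checks the computation and does not give the coverage of the divided intervals printed above. Python 3.11.15, pandas 2.3.3 and scipy 1.17.1 were used. Alternatives in scaling, length, tails, tags and floors are given at the end.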

Additional observations from a re-analysis of the deposited data

Results flagged for a closer look

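Reads at Mir191 and Mir425 that lie outside the tags described above were looked for. Where 1 of the libraries passed the 3 reads that a count of 0 allows, the reads are given here as values. No control sample could be set against them. The limit of 3 is from undivided counts, so 1 tag read several times can pass it. Of the lincRNA 4833445I07Rik outside the hairpins, the sense strand had 62 reads in Ia_low and 19 in Ia_high, the stretch between the hairpins had 0 in Ia_low and 4 in Ia_high, and the opposite strand had 0 in Ia_low and 7 reads of 1 tag in Ia_high. On the strand opposite to Mir191, where the annotation places Gm24083, there were 15 reads of 1 tag in Ia_low and 0 in Ia_high. Across the 5' edge of the Mir191 hairpin there were 12 reads of 1 tag in Ia_low, which began 11 bases before the hairpin, and 7 reads of 1 tag in Ia_high, which began 12 bases before it. Tags of 31 to 44 nt that begin with the main miR-191-5p tag had 105 reads of 16 tags in Ia_low and 449 reads of 39 tags in Ia_high, and those that begin with the main miR-425-5p tag had 0 reads in Ia_low and 12 reads of 9 tags in Ia_high. None of these long tags matched the hairpin over its whole length, and their origin was not tested.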

How the results depend on the processing

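Over 218 recomputed values, 139 were kept, 56 moved, 12 passed the 2-fold rule where the reported value did not, and 11 ratios changed sign. A ratio was kept with the same direction and call, a share or balance within counting error, and a number of calls within 1.5-fold of the reported number. With the differences in arm balance included, 15 log2 values changed sign, and the cause was not tested. No paired analysis was possible because each population had 1 library, which also allowed no value without a replicate. Log2 ratios are Ia_low over Ia_high. Scaled to all reads, the log2 ratio was -1.32 for miR-191-5p, -0.60 for miR-191-3p, -1.23 for miR-425-5p and -0.50 for miR-425-3p, with 7 arms called higher and 146 lower in place of 21 and 78. Centred on the median, it was 0.032 for miR-425-5p, with 37 arms higher. With tails counted it was -0.99 for both 3p arms; the log2 5p over 3p balance in Ia_high was then 11.28 for Mir191 and 3.08 for Mir425, with a difference of 0.44 for Mir191 and 0.54 for Mir425 between libraries, the log2 of miR-191-5p over miR-425-5p in Ia_high was 6.23, the share at the most common length was 83.6% in Ia_low and 83.0% in Ia_high for miR-191-5p and 69.0% in Ia_low and 71.1% in Ia_high for miR-425-5p, and the share of miR-425-3p at its most common start was 44.8% in Ia_high. With tails of 1 nt alone, 1.78% of miR-191-5p reads in Ia_low and 1.48% in Ia_high were tailed. Within reads of 22 nt the log2 ratio was -1.04 for miR-191-5p, 1.001 for miR-191-3p and 1.12 for miR-425-3p. Of 203 arms measured within that length, 32 were called higher and 54 lower. The log2 balance of Mir191 was then 6.93 in Ia_low and 8.97 in Ia_high, and that of Mir425 was 5.88 in Ia_high. The log2 of miR-191-5p over miR-425-5p was 1.45 in Ia_low and 2.04 in Ia_high, a difference of -0.59. Reads of 23 nt alone gave no value for the 3p arms. With Ia_high reads weighted by length, the log2 of miR-191-5p over miR-425-5p was 6.65 in Ia_high, a difference of -0.39. By the most abundant tag alone the log2 ratio was 2.37 for miR-191-3p and 1.22 for miR-425-3p, the log2 balance in Ia_high was 14.64 for Mir191 and 5.88 for Mir425, and the difference for Mir191 was -2.76; by the most common start alone the ratio of miR-191-3p was 1.99. Counting distinct tags in place of reads, the log2 ratio was -0.83 for miR-191-3p, 0.57 for miR-425-5p and -0.60 for miR-425-3p. The log2 balance of distinct tags was 2.46 in Ia_low and 1.65 in Ia_high for Mir191, a difference of 0.81, and 1.58 in Ia_low and 0.42 in Ia_high for Mir425, a difference of 1.17; the log2 of miR-191-5p over miR-425-5p was 0.87 in Ia_low and 1.46 in Ia_high, a difference of -0.58. Of distinct tags, a tail was on 80.7% in Ia_low and 80.0% in Ia_high for miR-191-5p, on 45.5% in Ia_low and 66.7% in Ia_high for miR-425-5p and on 62.5% in Ia_high for miR-425-3p. The most common start held 54.5% in Ia_low and 36.4% in Ia_high for miR-191-5p, 83.3% in Ia_low and 75.0% in Ia_high for miR-425-5p and 50.0% in Ia_high for miR-425-3p, and the most common length held 18.2% in Ia_low and 9.09% in Ia_high, 16.7% in Ia_low and 12.5% in Ia_high, and 16.7% in Ia_high for the same arms. A floor of 1 CPM called 79 arms higher and 172 lower, a floor of 100 CPM called 7 and 32, and a fold of 1.5 called 38 higher. For mRNA fragments, scaling to all tags gave log2 ratios of -0.45 for Foxp1 and -0.63 for Riok3, and counting reads gave -0.017 for Riok3. Of the 6 listed targets, 2 were called higher by reads (Tcf3 and Mxi1, while Dalrd3 was called lower, at -1.07) and 1 with fragments of 18 to 30 nt (Mxi1). The calls by reads used undivided counts, in which repeated reads of 1 fragment count as independent. The share of all genes called was not computed by reads or with fragments of 18 to 30 nt. These numbers of targets called therefore have no background and are not a result about the targets. Depth limits the 3p arms most, where 9 reads in Ia_low make 3.34 CPM.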
